A study of Bos taurus with 47 samples.

Results

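ACTB (ENSBTAG00000026199), GAPDH (ENSBTAG00000014731) and PPIA (ENSBTAG00000012003), which are commonly used as references for RNA measurements, were followed over all 47 mRNA libraries of a study of cattle embryos. They were taken by their identifiers, so 3 of the 20526 genes in the deposited table are described, and all 3 had reads in every library. The table gives identifiers only, and the symbols came with the choice of the genes. The reference table at hand matched 0 of the 20526 identifiers, so the pairing of symbols with identifiers was not checked here. For the same reason no other gene of the cytoskeleton, of glycolysis or of the cyclophilin family is described.

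A reference gene is one whose RNA is taken to stay level between samples, so that other RNAs can be expressed relative to it. ACTB encodes beta-actin, the main building block of actin filaments in non-muscle cells. GAPDH encodes glyceraldehyde-3-phosphate dehydrogenase, an enzyme of glycolysis, and PPIA encodes cyclophilin A, an abundant peptidyl-prolyl isomerase that assists protein folding. Early mammalian embryos first live on RNA stored in the oocyte and then replace it with their own transcripts, and in cattle the main wave of embryonic transcription starts around the 8-cell stage.

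The 12 groups held 4 libraries each, except for scNT morulae with 3, numbered 2, 3 and 4. Fibroblasts were primary cultures from the ear of a bull described as a Brahma Spanish cross. Oocytes were matured in vitro to metaphase II. IVF embryos came from matured oocytes fertilized with semen of a Holstein bull. scNT embryos came from somatic cell nuclear transfer, in which a serum-starved fibroblast was fused with an oocyte stripped of its chromosomes. Both kinds were collected in pools of 20 as 2-cell embryos on day 2, 8-cell embryos on day 3, morulae on day 6 and blastocysts on day 8. IVF embryos were cultured on a layer of cumulus cells. Cells derived from IVF or scNT blastocysts, called blastocyst-derived cells below, formed the last groups, and the labels do not say which cell type they were. Markers of the labelled cell types could not be looked up, because identifiers were not paired with names. The labels differ on whether 3 or 4 pools were made per stage, and nothing ties a replicate to a separate animal, so p-values measure the spread between these libraries, which may be technical.

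Values are deposited normalized reads per gene, that is, reads divided by 1 factor per library. Whole reads could be recovered from them, and library totals ran from 4608099 to 16642362 reads. The lowest count of any of the 3 genes in any library was 475 reads, and the 95% Wilson interval of a gene's share of a library reached at most 9.0% to either side, which covers counting error only. Gene lengths were not used, so levels are compared between samples and never between genes. Levels are relative to the rest of each library, so amounts of RNA per embryo or per cell cannot be read from them. The genomes of mammals hold a near-identical cytoplasmic actin gene, ACTG1, and many processed copies of GAPDH and PPIA. The sources used here do not say how reads shared with such copies were assigned, and the 3 levels are uncertain to that extent. A pair of libraries stood apart from their groups, replicate 3 of the fibroblasts and replicate 3 of the IVF 2-cell embryos. Several results that rest on them are given with and without them.

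ACTB had the widest span of the 3 genes. Its level was lowest in oocytes, at 4221 ± 482 (SD, n = 4), and highest in blastocyst-derived cells of scNT origin, at 124222 ± 22367 (SD, n = 4), a 29.2-fold difference between the geometric group means. Its mean share of all recovered reads was 0.0549% in oocytes and 1.43% in those cells. The 4 oocyte libraries held 3964, 4943, 4014 and 3964 normalized reads. Replicate 2 was the highest of them, and the other 3 lay close together.

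Among 2-cell embryos, ACTB stood at 4248, 5397, 28839 and 8799.7 in IVF libraries and at 3566, 4276.5, 10229.5 and 4564.5 in scNT libraries. At the 8-cell stage the values were 9461, 11034.5, 5419 and 18413 for IVF and 8733, 7957, 3611 and 19493 for scNT. At the 2-cell stage replicate 3 was the highest of its group in both, and at the 8-cell stage replicate 3 was the lowest and replicate 4 the highest in both. Over all genes, same-numbered libraries deviated together at these stages, with correlations of 0.118 to 0.683 over the 4 pairs of 2-cell libraries and 0.231 to 0.563 over the 4 pairs of 8-cell libraries. The IVF and scNT ranges overlapped at both stages. Within same-numbered libraries, ACTB was lower in scNT in 4 of 4 pairs at the 2-cell stage and in 3 of 4 pairs at the 8-cell stage. Replicate 3 of the 2-cell embryos also had the lowest library total of its group in both methods. It held 5939973 reads in IVF and 6680061 in scNT, where the next lowest totals were 13406644 and 10680846. Whether depth bears on these values was not tested.

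In morulae ACTB reached 29592, 17661, 22581 and 24758 in IVF libraries and 33392.5, 38139 and 25860.1 in scNT libraries. In blastocysts it reached 95715, 67569.7, 75709.8 and 63338 in IVF libraries and 126270, 61174, 80726 and 95282 in scNT libraries. Every blastocyst library lay above every morula library. Blastocyst-derived cells held 95532, 114239, 104591 and 103667 when derived from IVF blastocysts and 138108, 147597, 111397 and 99785.5 when derived from scNT blastocysts. Fibroblasts held 104312, 94972.5, 21901 and 82788. Replicate 3 of the fibroblasts was far below the other 3 and lay in the range of the morulae.

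GAPDH followed another course: it stayed low through the morula and was high in cultured cells. The lowest group was scNT 2-cell embryos, at 1259 ± 213 (SD, n = 4), and the highest was blastocyst-derived cells of IVF origin, at 17141 ± 2082 (SD, n = 4), with a 13.7-fold difference between geometric means. Oocytes held 2526, 2498, 1355.5 and 1751 normalized reads. Its 2-cell values were 1821, 1675, 4189.5 and 2290.4 in IVF libraries and 1170.3, 1196, 1572 and 1098 in scNT libraries. All 4 scNT libraries lay below all 4 IVF libraries there.

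At the 8-cell stage GAPDH stood at 1878, 1860.1, 1236 and 3032 in IVF libraries and at 2347, 2342, 1270.1 and 2899 in scNT libraries. As with ACTB, replicate 3 was lowest and replicate 4 highest in both. Morula values were 1851, 1427, 1993 and 1338 for IVF and 2205, 2445 and 2297 for scNT. In these normalized reads all 3 scNT libraries lay above the 4 IVF libraries. Blastocyst values were 5428, 3237, 3109.6 and 3005 for IVF and 6702, 3774, 5274 and 8366 for scNT. Replicate 1 of the IVF blastocysts was higher than 2 of the 4 scNT libraries, while its 3 companions lay below all of them. Blastocyst-derived cells held 15403.5, 18102, 19622 and 15437 with IVF origin and 17871, 17358, 14222 and 16821.5 with scNT origin. Fibroblasts held 11038, 13255, 22315 and 11317, and replicate 3, which was the lowest of the fibroblasts for ACTB, was the highest for GAPDH.

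PPIA had its highest group mean in scNT blastocysts and lower means in cultured cells. Its lowest group was scNT 2-cell embryos, at 488 ± 156 (SD, n = 4), and its highest was scNT blastocysts, at 4507 ± 706 (SD, n = 4), 9.45-fold apart in geometric mean. The place of the highest group depended on the scaling: as a share of all recovered reads, PPIA averaged 0.0460% ± 0.00626 (SD, n = 3) in scNT morulae and 0.0425% ± 0.00641 (SD, n = 4) in scNT blastocysts. Oocytes held 485, 485.5, 529 and 560.3 normalized reads, the narrowest range of any group for this gene on the log scale. In 2-cell embryos PPIA stood at 381, 440.4, 1147.5 and 801 in IVF libraries and at 383, 389.6, 715.5 and 466 in scNT libraries. Replicate 3 was again the highest in both methods.

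In 8-cell embryos PPIA held 1167.5, 1371, 730.3 and 872 in IVF libraries and 1081, 978, 561 and 1182.5 in scNT libraries. Morulae held 2231, 1819, 2096 and 2303 when made by IVF and 4081, 3428 and 3528 when made by scNT. No morula values of the methods overlapped. Blastocysts held 3229, 2898, 3539.9 and 3744 in IVF libraries and 4125, 4249, 4094 and 5562 in scNT libraries, again without overlap of normalized reads. Blastocyst-derived cells held 1944, 2871, 1731 and 2070.1 with IVF origin and 2068.5, 2957, 2012 and 2446 with scNT origin, and their ranges overlapped. Fibroblasts held 3113, 2891, 1748 and 2992, with replicate 3 the lowest.

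**Figure D1:**
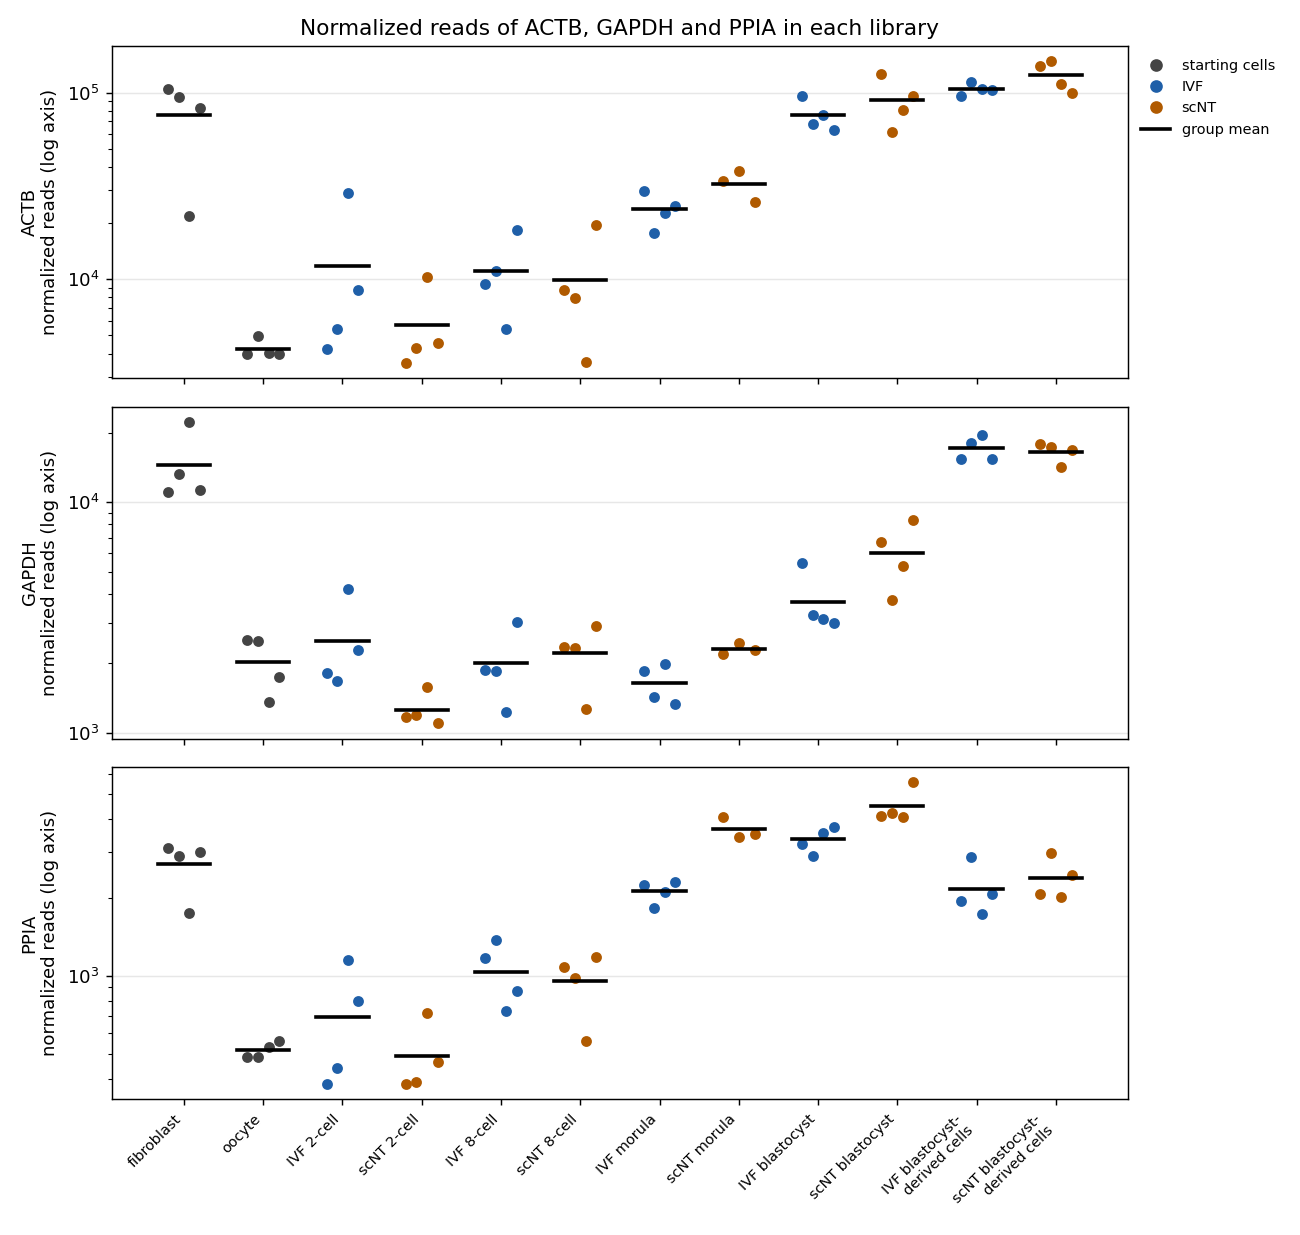
Normalized reads (log axis) of ACTB, GAPDH and PPIA in each of the 47 libraries, by group; each point is a library, colours mark starting cells, IVF and scNT, and black bars are arithmetic group means. ACTB was lowest in oocytes, GAPDH stayed low until the blastocyst, PPIA was highest in scNT blastocysts, and replicate 3 of the fibroblasts was low for ACTB and high for GAPDH.

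When the 12 groups were ordered by their mean, the libraries of most neighbours overlapped. For ACTB those of all 11 neighbouring pairs did. The gap between neighbouring means was larger than the SD of either group in 2 of 11 pairs for ACTB. It was so in 4 of 11 for GAPDH and 2 of 11 for PPIA. Sorting by the mean puts groups with close means side by side for any gene. Such counts were not computed for other genes. The counts of overlaps and gaps are therefore not read as particular to ACTB, GAPDH and PPIA. Overlap of libraries does not show that groups were alike: the ACTB neighbours IVF 8-cell embryos and IVF morulae overlapped and were called in the test of that step. The order from low to high was oocytes, scNT 2-cell, scNT 8-cell, IVF 2-cell, IVF 8-cell, IVF morulae, scNT morulae, fibroblasts, IVF blastocysts, scNT blastocysts, and the IVF and then the scNT blastocyst-derived cells. For GAPDH 10 of 11 neighbouring pairs overlapped, and only scNT blastocysts and fibroblasts did not. The GAPDH order was scNT 2-cell, IVF morulae, IVF 8-cell, oocytes, scNT 8-cell, scNT morulae, IVF 2-cell, IVF blastocysts, scNT blastocysts, fibroblasts, and the scNT and then the IVF blastocyst-derived cells. For PPIA 9 of 11 overlapped, the exceptions being IVF 8-cell embryos below IVF morulae and scNT morulae below scNT blastocysts. As shares of recovered reads PPIA overlapped between scNT morulae (0.0412% to 0.0531%) and scNT blastocysts (0.0392% to 0.0521%). The PPIA order was scNT 2-cell, oocytes, IVF 2-cell, scNT 8-cell, IVF 8-cell, IVF morulae, the IVF and then the scNT blastocyst-derived cells, fibroblasts, IVF blastocysts, scNT morulae and scNT blastocysts.

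Against the rest of the transcriptome, all 3 genes spread more than the median gene over the whole series. The SD of the 12 group means of log2(value + 1) was 1.80 for ACTB, 1.37 for GAPDH and 1.15 for PPIA. The median over the 10909 genes with a mean of at least 50 was 1.02. By this measure 77.3% of those genes were steadier than ACTB, 65.2% were steadier than GAPDH and 56.3% were steadier than PPIA. Among libraries of 1 group, the pooled SD was 0.66 for ACTB, 0.40 for GAPDH and 0.37 for PPIA, with a median of 0.38 over the same genes. The pooled SD was computed with all libraries only. For ACTB the SD was 1.06 in fibroblasts and 1.23 in IVF 2-cell embryos, the groups of the libraries that stood apart. These placements are descriptions and carry no test. Without both libraries that stood apart, the SD of group means was 1.89 for ACTB, 1.36 for GAPDH and 1.20 for PPIA.

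The ranking of the 3 genes depended on which samples were set side by side. Over oocytes and embryos alone (9 groups, 10384 genes), the SD of group means was 0.65 for GAPDH, 1.28 for PPIA and 1.61 for ACTB, and 38.1%, 71.8% and 80.9% of genes were steadier. Over oocytes, 2-cell and 8-cell embryos (5 groups) it was 0.35 for GAPDH, 0.49 for PPIA and 0.54 for ACTB, where the median gene had 0.27. Without IVF 2-cell replicate 3 the SDs over these 5 groups were 0.30, 0.52 and 0.52. In morulae and blastocysts (4 groups) PPIA had the lowest SD, at 0.46, against 0.79 for GAPDH and 0.93 for ACTB. Over fibroblasts and blastocyst-derived cells (3 groups) GAPDH had 0.16 and PPIA 0.15, and 19.6% and 18.5% of genes were steadier, while ACTB had 0.47 with 56.5% of genes steadier. That order rested on fibroblast replicate 3. Without it ACTB had the lowest SD, at 0.20, against 0.26 for PPIA and 0.29 for GAPDH, and 24.2%, 33.4% and 37.7% of genes were steadier. Every GAPDH mean of cultured cells lay above every mean of oocytes and embryos: the lowest of the former was 14481 ± 5315 (SD, n = 4) in fibroblasts and the highest of the latter 6029 ± 1964 (SD, n = 4) in scNT blastocysts.

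**Figure D2:**
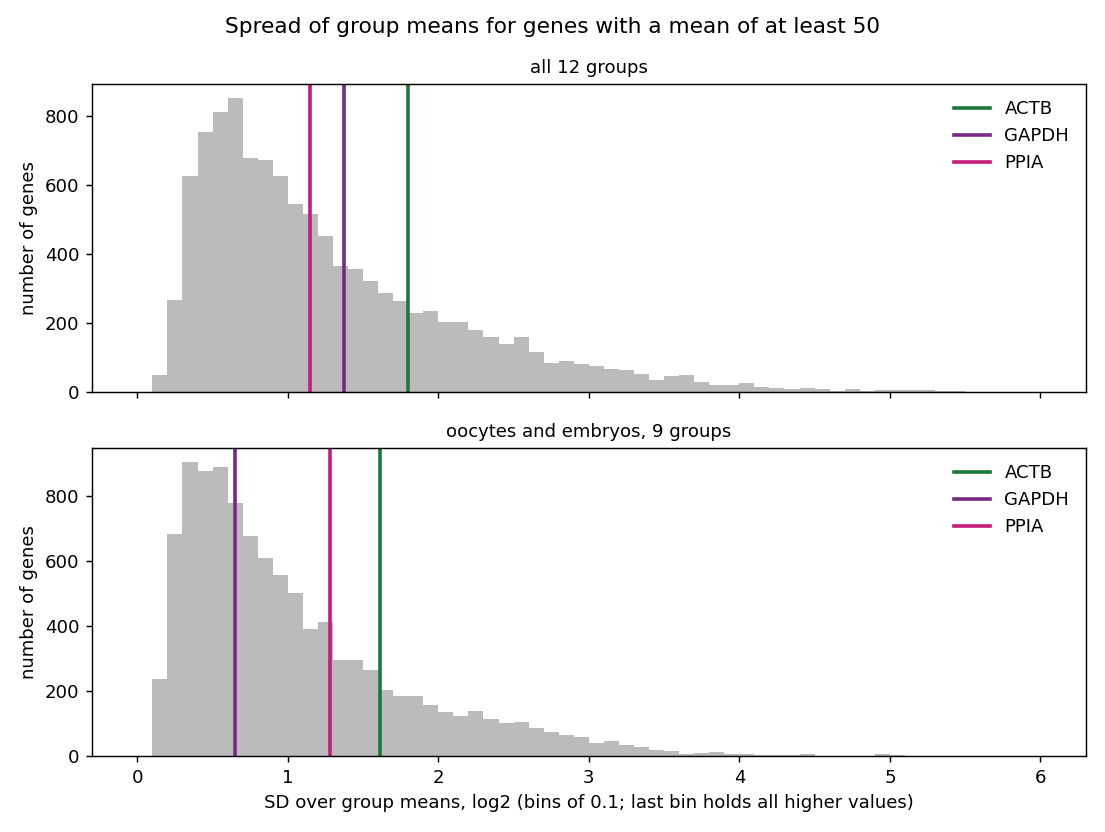
Distribution of the SD of group means (log2 scale) over genes with a mean of at least 50, for all 12 groups (top) and for the 9 groups of oocytes and embryos (bottom); grey bars count genes and coloured lines mark ACTB, GAPDH and PPIA. Over all groups the 3 lines stand at 1.80, 1.37 and 1.15, and among oocytes and embryos GAPDH moves to 0.65.

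Means of several reference genes spread as well. The SD of group means was 1.33 for the mean log2 value of all 3 genes, 1.52 for ACTB with GAPDH, 1.44 for ACTB with PPIA and 1.11 for GAPDH with PPIA. The last was only slightly below PPIA alone. In fibroblasts and blastocyst-derived cells GAPDH with PPIA gave 0.028, and 0.033 without fibroblast replicate 3. The geNorm M measure, the mean SD of a gene's log2 ratios to the other 2 genes over the libraries, was 1.04 for ACTB, 1.10 for PPIA and 1.16 for GAPDH over all 47 libraries. Over oocytes and embryos it was 0.79 for PPIA, 0.90 for ACTB and 1.06 for GAPDH, so the gene with the lowest SD of group means there had the highest M. Without the libraries that stood apart, M was 1.02 for ACTB, 1.10 for PPIA and 1.11 for GAPDH over all groups. Over oocytes and embryos M was then 0.78 for PPIA, 0.90 for ACTB and 1.07 for GAPDH.

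Each step of development was tested with limma on log2(value + 1) across all genes that passed a filter on low values, with p-values adjusted by the method of Benjamini and Hochberg and a threshold of 0.05 for a call. All 3 genes passed the filter in every comparison. ACTB was called in 6 of 16 comparisons, GAPDH in 6 and PPIA in 7. These counts are read against the share of all tested genes called in the same comparison, which rose steeply after the 8-cell stage.

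Between the starting cells, all 3 genes were higher in fibroblasts than in oocytes. ACTB was 15.5-fold higher (log2 difference 3.95, SE 0.46, limma adjusted p = 5.20e-05). GAPDH was 7.04-fold higher and PPIA 5.09-fold higher, with limma adjusted p-values of 2.01e-05 and 6.06e-06. Without fibroblast replicate 3 the log2 differences were 4.48 for ACTB, 2.59 for GAPDH and 2.54 for PPIA, and all 3 stayed called. In this comparison 78.3% of all genes were called.

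From the oocyte to the 2-cell embryo made by IVF, none of the 3 was called, and 1.06% of all genes were. ACTB differed by 1.06 with all libraries and by 0.48 without IVF 2-cell replicate 3. The GAPDH difference was 0.24 with and -0.042 without that library, and the PPIA difference 0.29 and -0.0041. In scNT embryos 18.5% of genes were called over the same step, and GAPDH fell by 0.66 on the log2 scale (SE 0.19, limma adjusted p = 0.0354), a 1.58-fold decrease. That call was lost when any of 6 of the 8 libraries was left out: oocyte replicate 1, 2 or 4, or scNT 2-cell replicate 1, 2 or 4, with limma adjusted p-values of 0.0544 to 0.118. ACTB differed by 0.30 and PPIA by -0.12 over the scNT step, neither called. Both steps were measured against the same 4 oocyte libraries.

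From the 2-cell to the 8-cell stage none of the 3 genes was called in either method. The share of all genes called was 0.263% in IVF and 5.68% in scNT. In scNT embryos PPIA had a log2 difference of 0.95 (limma adjusted p = 0.0673) and GAPDH one of 0.77 (limma adjusted p = 0.0864). Without scNT 8-cell replicate 3 both passed the threshold, and PPIA also passed it without scNT 2-cell replicate 3. In IVF embryos the differences were 0.68 for PPIA, -0.29 for GAPDH and 0.21 for ACTB. Without IVF 2-cell replicate 3 they were 0.97, -0.0071 and 0.78.

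From the 8-cell stage to the morula, ACTB and PPIA rose in both methods and GAPDH was not called in either. In IVF, ACTB rose 2.3-fold (log2 1.20, SE 0.33, limma adjusted p = 0.0143) and PPIA rose 2.09-fold (limma adjusted p = 0.00314). In scNT, ACTB rose 3.83-fold (limma adjusted p = 0.00814) and PPIA rose 4.01-fold (limma adjusted p = 0.000229). GAPDH differed by -0.22 in IVF (95% interval -0.80 to 0.36) and by 0.13 in scNT (95% interval -0.48 to 0.73). Of all genes, 45.9% were called in IVF and 68.9% in scNT.

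From the morula to the blastocyst, ACTB and GAPDH rose in both methods. ACTB rose 3.21-fold in IVF and 2.74-fold in scNT (limma adjusted p = 1.22e-06 and 0.00174). GAPDH rose 2.2-fold in IVF and 2.5-fold in scNT (limma adjusted p = 0.000279 and 0.00238). PPIA rose 1.59-fold in IVF (limma adjusted p = 0.000324) and had a log2 difference of 0.28 in scNT that was not called. Both PPIA values depended on the scaling. With libraries set to equal totals, which moved every gene by about -0.41 over this step, the IVF difference was 0.26 and no longer called (limma adjusted p = 0.0739) and the scNT difference was -0.12. With TMM scaling the scNT difference was 0.46 and called (limma adjusted p = 0.0427). The share of all genes called was 59.9% in IVF and 47.7% in scNT.

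From the blastocyst to blastocyst-derived cells, GAPDH rose and PPIA fell in both methods. GAPDH rose 4.76-fold in IVF (log2 2.25, SE 0.18, limma adjusted p = 5.77e-07) and 2.86-fold in scNT (log2 1.51, SE 0.21, limma adjusted p = 6.88e-05). PPIA fell 1.58-fold in IVF (limma adjusted p = 0.00254) and 1.91-fold in scNT (limma adjusted p = 0.000211). ACTB rose 1.4-fold in IVF (limma adjusted p = 0.00981), a call that was lost when all 12 groups shared 1 estimate of the spread (limma adjusted p = 0.375). In scNT the ACTB difference was 0.48 and not called (limma adjusted p = 0.082). It was called without scNT blastocyst replicate 1 (log2 0.66, limma adjusted p = 0.0243) and with equal library totals (log2 0.76, limma adjusted p = 0.0140). The IVF and scNT differences of ACTB over this step were both 0.48, and their difference was not called. Here 66.9% of genes were called in IVF and 67.0% in scNT, so calls of the 3 genes came at steps where large shares of all genes were called.

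The comparison of scNT with IVF asks whether the 3 genes differed with the way an embryo was made. scNT embryos carried the nuclear genome of the fibroblast bull, while IVF embryos had a Holstein sire and were cultured on cumulus cells. The method therefore cannot be told apart from genotype, sex or culture. At the 2-cell stage 0.0328% of all genes were called and none of the 3. GAPDH was lower in all 4 scNT libraries, with a log2 difference of -0.90 (95% interval -1.53 to -0.27, unadjusted p = 0.00955), but its limma adjusted p was 0.833. ACTB differed by -0.76 and PPIA by -0.41, with overlapping libraries. With the replicate number as a block, the unadjusted p was 0.0131 for ACTB, 0.000994 for GAPDH and 0.0438 for PPIA, with a limma adjusted p of 0.504 for each, and 0.0328% of genes were called there too. ACTB and GAPDH were lower in scNT in 4 of 4 same-numbered pairs and PPIA in 3 of 4. Without IVF 2-cell replicate 3 the differences were -0.62 for GAPDH, -0.18 for ACTB and -0.12 for PPIA. At the 8-cell stage 0% of genes were called by limma, while 1642 had an unadjusted p under 0.05. On recovered reads edgeR called 0 there and DESeq2 378, and neither called any of the 3 genes. With the replicate number as a block limma called 168 genes (1.29%), again none of the 3, with adjusted p-values of 0.307 for ACTB, 0.525 for GAPDH and 0.667 for PPIA. The differences there were -0.27 for ACTB, 0.16 for GAPDH and -0.13 for PPIA.

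In morulae 18.7% of genes were called, and PPIA was among them. It was 1.74-fold higher in scNT (log2 difference 0.80, SE 0.13, limma adjusted p = 0.0123). The limma adjusted p was 0.0521 without IVF morula replicate 2, with a log2 difference of 0.73. Over all alternatives its adjusted p ran from 1.76e-05 to 0.0697. GAPDH was 1.42-fold higher in scNT with no overlap of libraries (limma adjusted p = 0.058), and ACTB 1.38-fold (limma adjusted p = 0.125). ACTB passed the threshold only when scNT morula replicate 4 was left out.

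In blastocysts 5.95% of genes were called and none of the 3, although all had means above those of IVF. PPIA had a log2 difference of 0.42 with no overlap of libraries (limma adjusted p = 0.0772), GAPDH one of 0.69 (limma adjusted p = 0.176) and ACTB one of 0.23 (limma adjusted p = 0.581). GAPDH passed the threshold when scNT blastocyst replicate 2 was left out. DESeq2 on the recovered reads called GAPDH and PPIA in this comparison, with adjusted p-values of 0.0430 and 0.0181. The number of all genes it called was within 1.5 times the limma number. With all 12 groups in 1 fit the limma adjusted p was 0.535 for PPIA, 0.220 for GAPDH and 0.938 for ACTB. In blastocyst-derived cells 1.34% of genes were called, and the differences of 0.23 for ACTB, -0.047 for GAPDH and 0.15 for PPIA were not called. The 95% intervals there were -0.12 to 0.59, -0.34 to 0.25 and -0.24 to 0.54, and differences within these bounds remain possible.

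**Figure D3:**
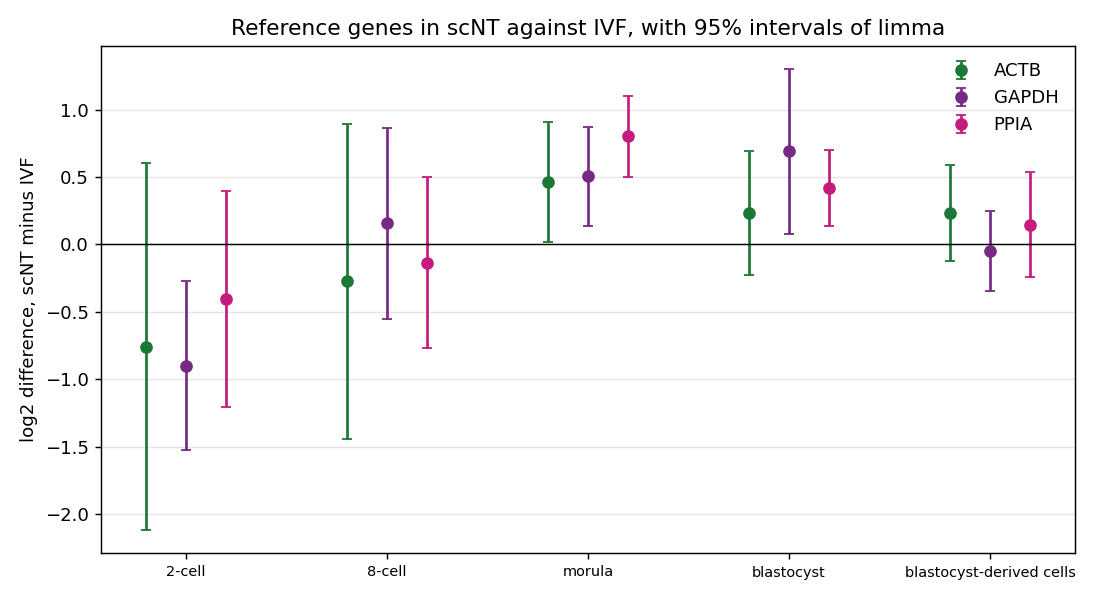
Log2 difference between scNT and IVF (vertical axis, scNT minus IVF) at each stage for ACTB, GAPDH and PPIA, with 95% intervals from limma. PPIA in morulae, at 0.80, was the single difference called after adjustment over all genes, and the intervals were widest at the 2-cell and 8-cell stages.

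Whether a step differed between the methods was tested as an interaction term in limma, and none of the 3 genes was called at any step. From the 2-cell to the 8-cell stage 0% of all genes were called by limma, where 644 had an unadjusted p under 0.05, and from the 8-cell stage to the morula 18.2%. PPIA was closest over the latter, with a scNT step larger by 0.94 (SE 0.34, limma adjusted p = 0.0657). It passed the threshold without IVF 8-cell replicate 3, IVF 8-cell replicate 4 or scNT 8-cell replicate 4, with limma adjusted p-values of 0.0423 to 0.0497. From the morula to the blastocyst 1.64% of genes were called, and from the blastocyst to blastocyst-derived cells 1.50%. Over the last step the GAPDH interaction was -0.74 (SE 0.30, limma adjusted p = 0.261).

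Ratios between the genes within a library do not depend on how libraries were scaled to each other. On the log2 scale the ACTB/GAPDH ratio rose from a group mean of 1.09 in oocytes to 4.38 in IVF blastocysts, a 9.76-fold span, and stood at 2.61 and 2.89 in blastocyst-derived cells of IVF and scNT origin. The ACTB/PPIA ratio ran from 3.03 in oocytes to 5.71 in blastocyst-derived cells of scNT origin, a 6.41-fold span. The GAPDH/PPIA ratio ran from -0.66 in scNT morulae to 3.01 in blastocyst-derived cells of IVF origin, a 12.8-fold span. These values compare groups, and their sizes say nothing about which gene was more abundant, because lengths were not used.

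GAPDH/PPIA went from 0.92 to -0.37 between 8-cell embryos and morulae made by IVF and from 1.21 to -0.66 in scNT, with no overlap of libraries in either. It then stood at 0.10 in IVF blastocysts and 3.01 in the cells derived from them, and at 0.37 and 2.82 in scNT. ACTB/GAPDH went from 2.41 to 3.83 between IVF 8-cell embryos and morulae and from 1.98 to 3.79 in scNT. ACTB/PPIA stood at 3.47 in IVF morulae and 4.48 in IVF blastocysts, and at 3.13 and 4.30 in scNT. In fibroblasts, replicate 3 had an ACTB/GAPDH ratio of -0.027 where the highest of the other 3 had 3.24. The fibroblast mean of this ratio was 1.14 above that of oocytes with all libraries and 1.89 above it without replicate 3.

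Over the 3 ratios and 16 comparisons, 16 of 48 had libraries that did not overlap between groups. The share of ratios of other genes without overlap was not computed, so this count is not read as particular to the 3 genes. An exact two-sided permutation test cannot give a p below 0.0286 with groups of 4 or of 3 and 4. Of the 48 tests, 15 reached that lowest p. With Benjamini-Hochberg adjustment over the 48 tests the smallest adjusted value was 0.0914, so no ratio passed the threshold. Even a ratio whose groups lay fully apart could not pass here, so the lack of a call does not show that ratios stayed level. None of the 15 comparisons of a ratio between scNT and IVF had groups that did not overlap. The largest of those differences was -0.49 for GAPDH/PPIA at the 2-cell stage (exact permutation p = 0.0857, n = 4 and 4).

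**Figure D4:**
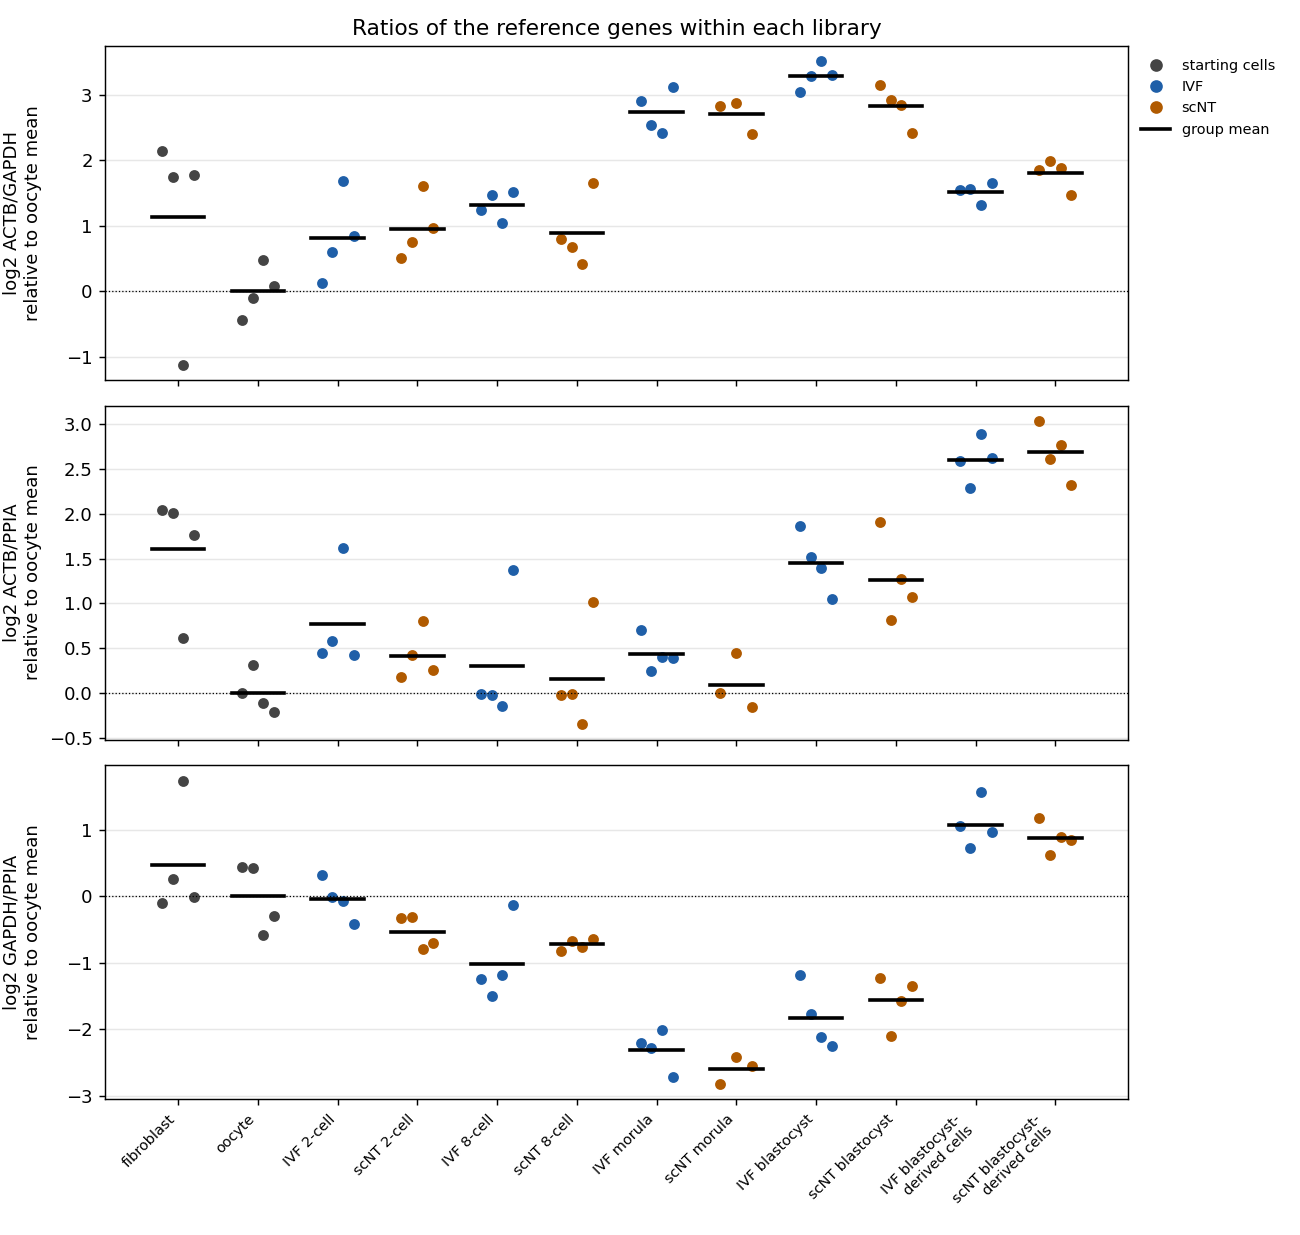
Log2 ratios of ACTB to GAPDH, ACTB to PPIA and GAPDH to PPIA in each library, relative to the oocyte mean (vertical axes); points are libraries and black bars are group means. ACTB/GAPDH is highest in blastocysts, 3.29 above oocytes in IVF, and GAPDH/PPIA is lowest in morulae, 2.60 below oocytes in scNT.

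To show what each gene would do as a reference, every other gene was tested again between scNT and IVF after each library had been scaled to ACTB, GAPDH, PPIA or the mean of the 3 log2 values. A reference that is higher in one method lowers all other genes there by construction. In morulae, 1002 genes were higher and 1540 lower in scNT as deposited. Scaled to ACTB, 48 were higher and 2816 lower (21.1% of genes called). Scaled to GAPDH, 55 were higher and 3466 lower (25.9%). Scaled to PPIA, 44 were higher and 6908 lower (51.2%), and with the mean of the 3 the numbers were 53 and 4559 (33.9%). The median log2 difference of all genes moved from 0.047 as deposited to -0.42, -0.46, -0.75 and -0.54.

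In blastocysts, 319 genes were higher and 432 lower as deposited. The numbers became 81 and 398 after scaling to ACTB (3.80% called), 40 and 2065 with GAPDH (16.7%), 100 and 3016 with PPIA (24.7%) and 73 and 1456 with the mean of the 3 (12.1%). In blastocyst-derived cells, where 79 were higher and 87 lower as deposited, the shares called were 1.13% with ACTB, 1.01% with GAPDH, 0.541% with PPIA and 0.880% with the mean. At the 8-cell stage, where limma called 0 genes as deposited, the shares were 0.231%, 3.00%, 1.88% and 1.37% in the same order. Higher and lower in scNT were 5 and 25 genes with ACTB and 6 and 384 with GAPDH. With PPIA they were 9 and 235, and with the mean 6 and 172. The median log2 difference of all genes was 0.41, -0.023, 0.27 and 0.22. With ACTB, PPIA and the mean, most called genes thus went against the median. At the 2-cell stage the shares were 0.0574%, 0.0738%, 0.0574% and 0.0656%, and every called gene was higher in scNT.

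These numbers changed as single libraries were left out. Scaled to GAPDH, blastocysts gave 7335 genes without IVF replicate 1 and 7440 without scNT replicate 2, and 470 to 1134 without any one of the other 6 libraries. Scaled to GAPDH, 2-cell embryos gave 5030 genes without IVF replicate 3. In morulae the number called ran from 1703 to 4289 with ACTB, from 2351 to 3705 with GAPDH and from 5043 to 7984 with PPIA as each library was left out. The 1703 came without IVF replicate 2.

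**Figure D5:**
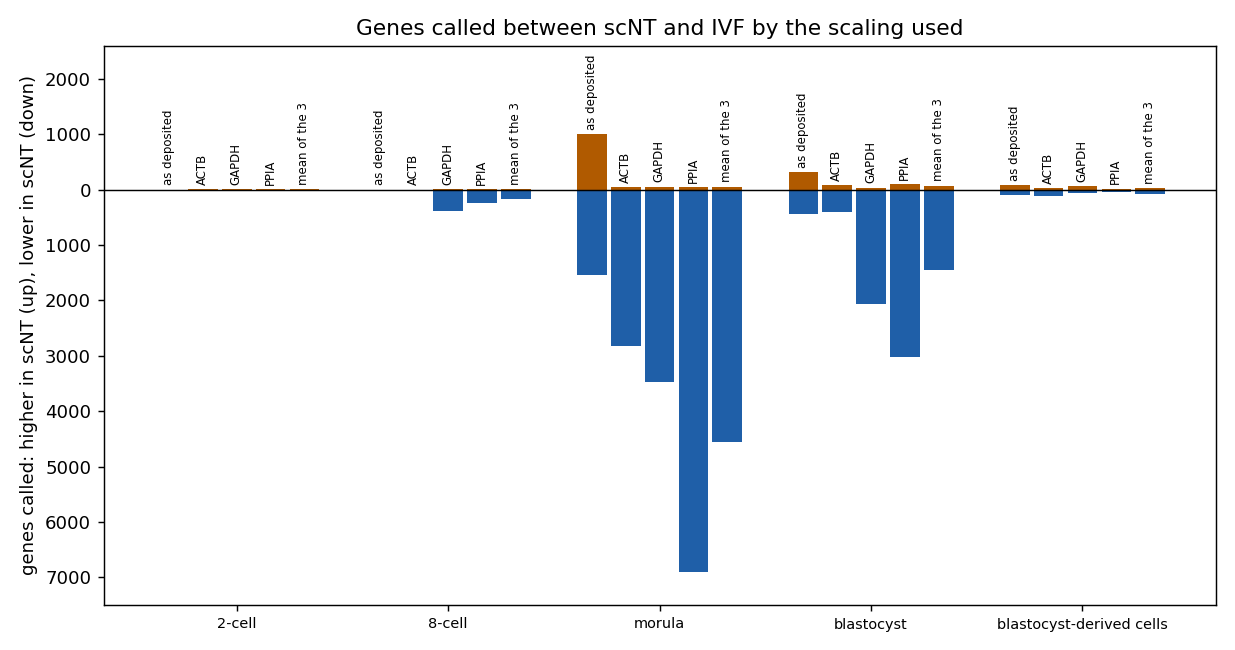
Number of genes called between scNT and IVF at each stage (bars up: higher in scNT, bars down: lower in scNT), as deposited and after scaling each library to ACTB, GAPDH, PPIA or the mean of the 3. In morulae the split of 1002 higher and 1540 lower became 44 and 6908 with PPIA.

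Among genes with a mean of at least 50, the steadiest by the SD of the 12 group means was ENSBTAG00000003552, with an SD of 0.13 and group means between 496 and 692 normalized reads. The next was ENSBTAG00000009123, with an SD of 0.14 and group means between 56.5 and 80.8. They were chosen by this measure, so the values are descriptions. The genes whose 12 group means correlated most with those of ACTB were ENSBTAG00000013363 and ENSBTAG00000006189 (both Pearson r = 0.997). The closest to GAPDH were ENSBTAG00000014553 (r = 0.988) and ENSBTAG00000005976 (r = 0.987). The closest to PPIA were ENSBTAG00000009508 (r = 0.995) and ENSBTAG00000018115 (r = 0.994). These correlations are over 12 group means that share the libraries and their scaling, and the names of these genes were not at hand.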

How the data were processed

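The sources used here were the sample labels and 1 deposited table of mRNA values for 20526 genes and 47 libraries. Per the labels' protocols, RNA above 200 nt was amplified by repeated PCR, and molecular identifiers are not mentioned. The submitters' processing notes name STAR, DESeq2, MultiQC, FastQC and the build UMD3.1, without their roles. A read counter and an annotation are not named. The signal in the deposited table is reads that the authors divided by 1 factor per library. In every library, 100.0% of the values above 0 were whole multiples of the library's step within 0.06. No coordinates or sequences are printed, since no genome of that build was at hand.

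Groups and replicate numbers came from the titles. A gene was kept where it reached 10 in a number of libraries equal to the smaller group's size, and log2(value + 1) was tested with limma 3.58.1 (trend, robust) in R 4.3.3. Each fit held only the groups compared, without a replicate block, and was two-sided. Adjustment by Benjamini and Hochberg ran over all genes. Same-numbered libraries deviated together at the 2-cell and 8-cell stages (all correlations over 0.1). Ratios were tested by exact permutation with scipy 1.17.1. Scaling to a reference gene subtracted the deviation of its log2 value from every gene of a library. The fits were tested on simulated data. Alternatives were a pseudocount of 5, no filter, other scalings, edgeR 4.0.16, DESeq2 1.42.0, all 12 groups in 1 fit, the block, and leaving out libraries. Named genes were the 3 members, the 2 most correlated with each, and the 2 steadiest. The lists of other reference genes, pathway genes and cell type markers were not used, because their identifiers were not known. The members and lists were chosen with earlier results of these data known.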

Additional observations from a re-analysis of the deposited data

Results flagged for a closer look

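In groups of 4, a library was singled out when its gap to the nearest other library took an unusually large share of the group's whole range on the log2 scale. Of 66 groups of values examined, 8 were singled out. The limit lets about 1 in 20 pass by chance when groups are independent. These groups were not, because the ratios were computed from the same 3 genes and fibroblast replicate 3 was singled out repeatedly. The rate over all genes was not computed, so no excess over chance is claimed. In fibroblasts, replicate 3 was lowest for ACTB with a share of 0.852, lowest for PPIA with 0.872, and lowest for the ACTB/GAPDH ratio with 0.878. In oocytes, replicate 2 was highest for ACTB with a share of 0.942, although the group spanned only a 1.25-fold range. In IVF blastocysts, replicate 1 was highest for GAPDH with 0.874. In scNT blastocysts, replicate 4 was highest for PPIA with 0.878. For the ACTB/PPIA ratio, replicate 3 of the IVF 2-cell embryos was highest with 0.869, and replicate 4 of the IVF 8-cell embryos was highest with 0.915.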

How the results depend on the processing

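Of the differences named in the text, those of ACTB, GAPDH and PPIA that were called over a step kept their direction under every alternative run. Several small differences that were not called changed sign as single libraries were left out. Between the methods at the 8-cell stage the range was -0.68 to 0.13 for ACTB, -0.050 to 0.40 for GAPDH and -0.29 to 0.10 for PPIA, and in blastocyst-derived cells -0.095 to 0.025 for GAPDH. From oocytes to IVF 2-cell embryos it was -0.042 to 0.40 for GAPDH and -0.0041 to 0.52 for PPIA, and from oocytes to scNT 2-cell embryos -0.031 to 0.48 for ACTB. For ACTB from the IVF 2-cell to the 8-cell stage it was -0.14 to 0.78, and edgeR and DESeq2 on recovered reads gave -0.14 and -0.16. For GAPDH from the 8-cell stage to the morula it was -0.43 to 0.00093 in IVF and -0.12 to 0.28 in scNT. For differences between the steps of the methods it was -0.089 to 0.89 for ACTB and -0.018 to 0.51 for PPIA from the 2-cell to the 8-cell stage, and -0.17 to 0.17 for ACTB from the blastocyst to derived cells, where equal library totals gave 0.17.

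Ratios also changed sign where they were near level. Between the methods, ACTB/GAPDH ranged over -0.15 to 0.11 for morulae and -0.087 to 0.43 for 2-cell embryos. Within scNT it ranged over -0.33 to 0.15 for the step into the 8-cell stage and -0.017 to 0.27 for the step into the blastocyst. ACTB/PPIA ranged over -0.42 to 0.22 between methods at the 8-cell stage, -0.030 to 0.21 in blastocyst-derived cells, -0.0093 to 0.49 from IVF 8-cell embryos to morulae and -0.24 to 0.22 for the same step in scNT. GAPDH/PPIA ranged over -0.24 to 0.10 from oocytes to IVF 2-cell embryos. In an alternative chosen after seeing the data, limma was instead run across all genes divided by the second gene. There 15 of 48 ratio comparisons were called, 0 of them between scNT and IVF. In the fits with a called ratio, 19.5% to 90.1% of all genes were called. Between scNT and IVF the shares ran from 0.0574% in 2-cell embryos to 51.2% in morulae, both after division by PPIA. The count of called ratios is therefore not read as particular to these genes.

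Setting all libraries to equal totals moved differences by over 0.1 in 9 of 16 comparisons, by -0.41 to 0.28. It turned PPIA from scNT morulae to blastocysts to -0.12. The number of the 3 genes called in morulae between methods was 1, with 2 under TMM scaling and 2 under DESeq2 (GAPDH beside PPIA in both), and 0 to 2 with libraries left out. In blastocysts it was 0, with 2 under DESeq2 and 0 to 1 with libraries left out. From oocytes to scNT 2-cell embryos it was 1, with 0 when all 12 groups shared a fit and 0 to 1 with libraries left out. From scNT 2-cell to 8-cell embryos it was 0, with 2 under DESeq2, 1 with all 12 groups in a fit and 0 to 2 with libraries left out. For the difference between steps to the morula it was 0 to 1 with libraries left out. With the replicate number as a block the numbers were 0 in morulae (PPIA difference 0.83, limma adjusted p = 0.0697), 1 in blastocysts and 0 from oocytes to scNT 2-cell embryos, and the ACTB/GAPDH difference in morulae was 0.012. The block used shared replicate numbers only, so in morulae it also left out IVF replicate 1. Without that library and without a block, the PPIA difference was also 0.83 and stayed called (limma adjusted p = 0.0271). The ACTB/GAPDH difference was then also 0.012. Same-numbered libraries deviated together at the 2-cell and 8-cell stages, where the block changed no call of the 3 genes. At the other comparisons not every same-numbered pair had a correlation over 0.1. Between the methods in blastocyst-derived cells the correlations of the 4 pairs ran from 0.0164 to 0.426. There PPIA was higher in scNT in 4 of 4 pairs, ACTB in 3 of 4 and GAPDH in 2 of 4. With the block the limma adjusted p there was 0.553 for PPIA, 0.524 for ACTB and 0.912 for GAPDH. Over all genes, the block together with the loss of IVF replicate 1 moved the number called from 2542 to 2 in morulae. Causes of these changes were not tested.

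GAPDH had an SD of 0.65 and a range of 2.21 over oocytes and embryos only, with 38.1% of genes steadier, and PPIA had 71.8% of genes steadier. With each library left out, the genes called after scaling to ACTB, GAPDH and PPIA ranged over 7 to 28, 6 to 5030, 6 to 46 at the 2-cell stage, 6 to 190, 8 to 1145, 15 to 437 at the 8-cell stage, 169 to 1437, 470 to 7440, 1105 to 3791 in blastocysts and 65 to 145, 80 to 122, 26 to 69 in blastocyst-derived cells. In morulae the ranges were 1703 to 4289, 2351 to 3705, 5043 to 7984. On recovered reads, the genes called by edgeR and DESeq2 were 2 and 9 between methods at the 2-cell stage (4 by limma), 149 and 455 in blastocyst-derived cells (166), 80 and 483 from oocytes to IVF 2-cell embryos (130), 0 and 667 from there to IVF 8-cell embryos (34, with 2062 at an unadjusted edgeR p under 0.05) and 708 and 1502 for that step in scNT (706). In the other 10 comparisons of groups, beside the 8-cell comparison of methods, both were within 1.5 times the limma number. The lowest count of the 3 genes in any library was 475 reads, and groups held 3 or 4 libraries.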
